A study of Mus musculus with 18 samples.

Results

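Collagen genes were followed in the lacrimal gland (LG) of 2 mouse strains over 3 ages. The genes were chosen by name alone, as the symbols made of Col, a number, the letter a and a second number, and 44 of the 54232 genes in the count table carried such a name. They comprise 11 chains of fibrillar collagens, 6 of type IV, 6 of type VI, 9 of FACITs (collagens that sit on fibrils and have interrupted helices), 4 transmembrane collagens, 3 short-chain collagens, 2 multiplexins (Col15a1 and Col18a1), the anchoring fibril collagen Col7a1 and 2 other chains. LGs freed of their capsule and adjoining tissue were used. They came from male BALB/cJ mice (BALB/c, the control) and male NOD.B10Sn-H2b/J mice (NOD.H-2b, which develop LG inflammation and serve as a model of Sjögren syndrome). Mice were 2, 4 or 6 months old (2M, 4M and 6M), with 3 mice in each of the 6 groups and 1 gland of 1 mouse per library. The labels give no transgene, further allele or treatment for either strain. BALB/c is a different inbred strain, so a strain difference holds every genetic difference between the 2 lines.

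A collagen molecule is made of 3 chains wound into a triple helix, which needs a glycine at the start of each repeated Gly-X-Y triplet. Fibrillar types I, III and V bundle into the fibers of the stroma, type IV forms the sheet of the basement membrane under epithelium and around vessels, type VI forms beaded filaments between cells and matrix, and type VII anchors the epithelial basement membrane to the stroma. Most of these chains are made by fibroblasts and other stromal cells, and some by epithelium, endothelium or Schwann cells. In bulk tissue, fewer cells of a type and less RNA per cell cannot be told apart.

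The repeat that defines the family is shown for 8 chains on which the results turn. Each line below holds 24 codons of the coding sequence, 5′ to 3′ on the coding strand, from the GENCODE M21 models on GRCm38, and the codons that start with GG and so encode glycine are in capitals. For Col1a1, Col3a1, Col6a3 and Col6a4 the stretch opens the longest unbroken run of the triplet. For Col27a1, Col4a1, Col4a6 and Col7a1 it spans the end of that run, so that the break in the repeat can be seen.
Col1a1: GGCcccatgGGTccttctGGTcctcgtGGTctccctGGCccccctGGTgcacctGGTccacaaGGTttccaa
Col3a1: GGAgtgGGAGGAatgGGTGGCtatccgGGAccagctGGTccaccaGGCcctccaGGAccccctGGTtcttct
Col27a1: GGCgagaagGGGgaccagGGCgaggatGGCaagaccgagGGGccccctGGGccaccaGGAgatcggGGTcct
Col4a1: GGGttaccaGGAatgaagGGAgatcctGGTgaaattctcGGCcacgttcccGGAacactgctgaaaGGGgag
Col4a6: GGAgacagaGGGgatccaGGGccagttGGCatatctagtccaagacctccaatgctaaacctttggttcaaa
Col6a3: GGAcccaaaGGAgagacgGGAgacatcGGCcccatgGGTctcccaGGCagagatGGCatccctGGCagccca
Col6a4: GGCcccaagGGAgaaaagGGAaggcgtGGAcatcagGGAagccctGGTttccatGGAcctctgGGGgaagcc
Col7a1: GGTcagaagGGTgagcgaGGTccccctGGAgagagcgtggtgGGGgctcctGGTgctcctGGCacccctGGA

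These stretches lie in exons 6 to 8 of Col1a1 (chr11:94939451-94939921, plus strand), 5 to 6 of Col3a1 (chr1:45323762-45325395, plus strand), 41 to 43 of Col27a1 (chr4:63315607-63317492, plus strand) and 8 to 9 of Col4a1 (chr8:11244516-11245075, minus strand). The others lie in exons 29 to 30 of Col4a6 (chrX:141188344-141189347, minus strand), 22 to 23 of Col6a3 (chr1:90791942-90792445, minus strand), 19 to 20 of Col6a4 (chr9:106033947-106040607, minus strand) and 111 to 112 of Col7a1 (chr9:108981336-108982362, plus strand). The coordinates run from the first to the last base and include the introns between these exons. Across the fibrillar chains, the longest unbroken run held 216 to 344 triplets with a median of 338, against 39 to 66 in type IV and 37 to 87 in type VI. Col27a1 and Col24a1 stood apart among the fibrillar chains, with 217 and 216 triplets, while Col1a1 had 338 and Col3a1 344. Col6a3 and Col6a4 had equal longest runs of 45 triplets, and Col7a1 reached 75.

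The libraries held 49480781 to 103936830 counts per mouse, and collagens took 0.0614% to 0.142% of them. The spread between mice was larger than counting error (chi-square of 17.7 to 91.1 per gene between replicates), so no 2 libraries were counted as 1 sample. Levels are given as CPM, read counts scaled to a common library size (TMM). The labelled tissue was checked on 8 markers of luminal epithelium, whose summed level was between 590 and 1053 CPM in every mouse. Skeletal muscle markers summed to 0.230 to 1.54 CPM and adipocyte markers to 1.55 to 4.60 CPM. Strains at 1 age, and 2 ages of 1 strain, were compared with edgeR's quasi-likelihood test on the 6 mice concerned. A gene was called at an adjusted p (FDR over all genes tested) under 0.05. The strain comparisons and age comparisons use the same mice and are not independent of each other.

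Collagen RNA in the gland was mostly that of a few stromal chains and of Col7a1. Levels were compared between genes only per kb of exon, as CPM per kb over all 18 mice. Col7a1 led with 20.1 ± 4.17 and Col3a1 followed with 19.5 ± 7.85 (SD, n = 18), a difference smaller than the spread of either. Their order changed with the group, since at 2M Col3a1 was at 33.0 ± 2.60 and Col7a1 at 19.96 ± 0.377 CPM per kb in NOD.H-2b, and at 6M Col7a1 was at 23.99 ± 1.29 and Col3a1 at 14.3 ± 2.43 CPM per kb in BALB/c (SD, n = 3). Col1a1 came next with 12.1 ± 6.45, followed by Col1a2 with 7.72 ± 2.70, Col4a1 with 6.14 ± 1.66 and Col4a2 with 4.70 ± 1.23. Each of these neighbours overlapped in SD, which here spans all groups. Within every single mouse, Col3a1 was above Col1a1, Col1a1 above Col1a2 and Col4a1 above Col4a2, with ratios of at least 1.34, 1.16 and 1.15. As shares of all collagen counts, Col7a1 took 23.2%, Col3a1 21.6%, Col1a2 10.9% and Col1a1 9.00%. At the other end, Col10a1, the collagen of hypertrophic cartilage, had no count in any mouse. The cartilage chains Col2a1 and Col11a1 had 3 and 21 counts in all 18 libraries together, and Col22a1, a collagen of muscle-tendon junctions, had 1. Of the 44 genes, 31 passed the filter on low counts at 2M, 34 at 4M and 34 at 6M, and 35 passed it in the fit of all mice. Col2a1, Col8a2, Col9a1, Col9a2, Col10a1, Col11a1, Col19a1, Col22a1 and Col26a1 passed it in no comparison with all mice of its groups, and counts for those with a group at or under 3 counts are given further on.

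**Figure D1:**
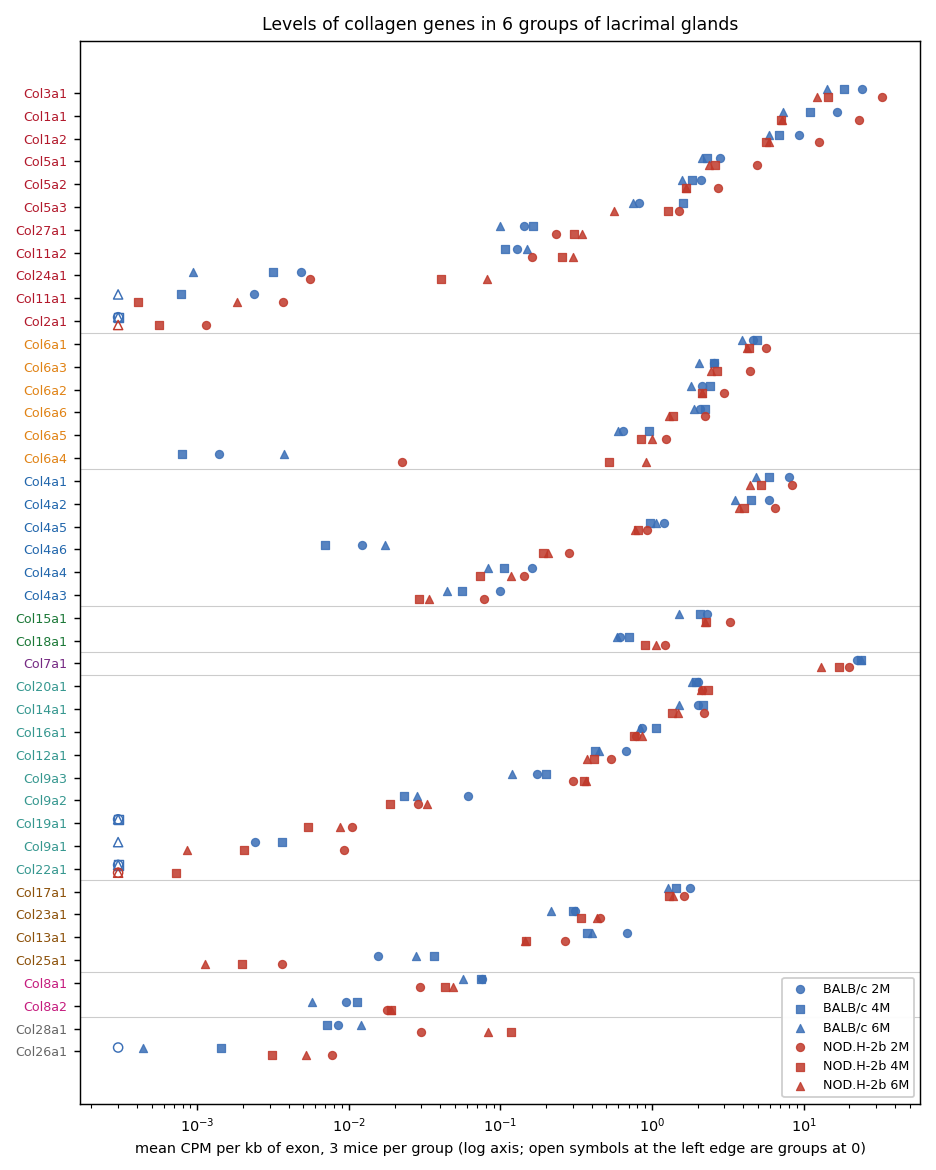
Mean level of each collagen gene in each group, in CPM per kb of exon on a log axis, with 3 mice per point, colored by strain, shaped by age and ordered by class. Col3a1 and Col7a1 lie at the right edge, Col4a6, Col6a4 and Col24a1 show the widest gaps between the strains, and open symbols at the left edge are groups with no count.

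At 2M, most fibrillar and type VI chains were higher in NOD.H-2b. Of the 31 tested, 16 were upregulated and 4 downregulated, where 22.5% and 17.2% of all 17200 genes tested were called in these directions. Requiring a fold of at least 2 as well, 2 were higher and 2 lower, against 12% and 3.76% of all genes. The median log2 fold change was 0.35 over the members and 0.01 over all genes. Scaling by library totals put the median of all genes at 2M at 0.20 and moved the split to 20 higher and 2 lower. With that scaling, 6509 of all 17200 genes were higher and 1432 lower. Leaving out 1 mouse left 12 to 16 higher, where 3376 to 3711 of 17522 to 17756 genes were higher. The 4 lower calls fell to 2 without BALB/c 2M replicate 1 and to 1 without BALB/c 2M replicate 2. In these fits 2436 of 17724 and 2371 of 17738 genes were lower.

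The fibrillar class stood out by its counts at 2M, with 7 of 8 tested chains higher and none lower. Col1a1, the main chain of type I collagen and of scar tissue, was at 122, 114 and 88.6 CPM in the BALB/c mice and at 158, 142 and 158 CPM in the NOD.H-2b mice. Col3a1, the chain of type III collagen in soft reticular fibers, was at 275, 245 and 199 CPM in BALB/c and at 352, 302 and 317 CPM in NOD.H-2b. For both genes, all 3 NOD.H-2b mice lay above all 3 BALB/c mice. Expressed as log2 fold changes, the differences were 0.54 ± 0.12 for Col1a1 (SE, adjusted p = 0.013) and 0.48 ± 0.12 for Col3a1 (SE, adjusted p = 0.021). Both calls leaned on single NOD.H-2b mice of 2M. Col1a1 was no longer called without replicate 1 (adjusted p = 0.0518) or replicate 3 (adjusted p = 0.0595), and Col3a1 without any one of the 3, with adjusted p between 0.0747 and 0.0805.

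The partner chain Col1a2 was at 124, 126 and 99.0 CPM in BALB/c and at 163, 151 and 155 CPM in NOD.H-2b mice of that age, with no overlap and a log2 fold change of 0.47 ± 0.09 (SE, adjusted p = 0.0026). Type V collagen seeds and thins the fibrils of type I. Its chain Col5a1 was at 28.5, 23.4 and 20.2 CPM in BALB/c and at 46.6, 37.4 and 41.4 CPM in NOD.H-2b, a log2 fold change of 0.84 ± 0.13 (SE, adjusted p = 0.0022). Here the lowest NOD.H-2b mouse was well above the highest BALB/c mouse. Its partner Col5a2 differed less, at 23.1, 20.1 and 17.6 against 26.9, 25.0 and 26.3 CPM (log2 fold change 0.41 ± 0.09, SE, adjusted p = 0.004). The last 2 fibrillar calls were Col5a3 (0.93 ± 0.16, SE), chosen for mention after its value was seen, and Col27a1, described below. Calls for Col1a2, Col5a1 and Col5a2 were kept without any 1 mouse. Col5a1 shares 99 exonic bases with the antisense gene 2810430I11Rik and 113 with Gm13372, and Col3a1 shares 141 with Gm47302, so counts in these bases are uncertain.

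Type VI showed the same direction at 2M, with 4 of 5 tested chains higher and none lower. Col6a3, the long chain that completes the type VI molecule, was at 31.4, 31.3 and 29.3 CPM in BALB/c and at 58.1, 48.5 and 53.5 CPM in NOD.H-2b. The groups were far apart, and the log2 fold change of 0.84 ± 0.07 (SE) had an adjusted p of 2.5e-06. Its partners moved less, with log2 fold changes of 0.32 ± 0.08 for Col6a1 (SE, adjusted p = 0.0054) and 0.54 ± 0.09 for Col6a2 (SE, adjusted p = 0.00055). The fourth was Col6a5, named after its value was seen, at 5.50, 6.12 and 6.58 CPM in BALB/c and 11.7, 12.4 and 10.8 CPM in NOD.H-2b. Both multiplexins were higher too. Col18a1, a basement membrane proteoglycan whose end fragment is endostatin, was at 3.90, 4.58 and 4.53 CPM in BALB/c and 8.48, 8.62 and 8.41 CPM in NOD.H-2b (log2 fold change 1.01 ± 0.10, SE, adjusted p = 1.6e-05). Col15a1 was at 16.2, 13.8 and 13.7 against 21.5, 19.3 and 21.7 CPM (0.56 ± 0.08, SE, adjusted p = 0.0003). In none of these did the strains overlap.

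Type IV, the sheet of the basement membrane, did not follow at 2M. Among its 6 tested chains, only Col4a6 was called higher and only Col4a5 lower. The main pair overlapped between strains: Col4a1 was at 65.5, 57.6 and 55.0 CPM in BALB/c and at 67.4, 52.2 and 68.0 CPM in NOD.H-2b, and Col4a2 at 40.9, 38.2 and 37.7 against 45.8, 35.4 and 47.9 CPM. The transcript starts of these 2 genes lie 21 bases apart on opposite strands and their exons share 22 bases. Markers of fibroblasts moved with the fibrillar and type VI chains at 2M. Of 9 fibroblast markers tested, 5 were higher and none lower in NOD.H-2b, and their summed level was 51.1 to 71.0 CPM in BALB/c and 73.8 to 79.5 CPM in NOD.H-2b. Summed endothelial markers were at 75.4 to 82.0 against 107 to 112 CPM, and 2 of 8 were called higher and 1 lower. Their part in the collagen differences was not tested.

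**Figure D2:**
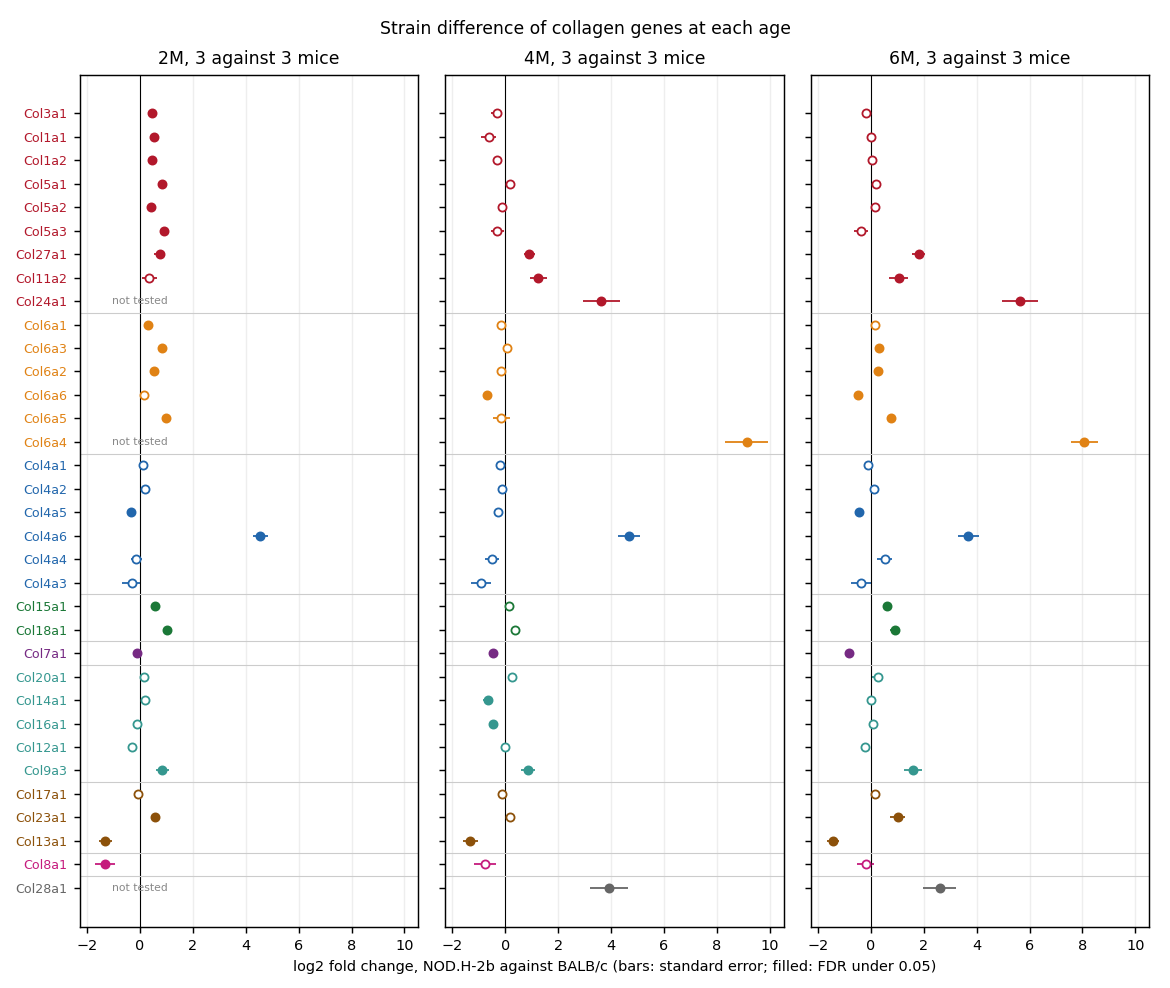
Log2 fold change of each tested collagen gene, NOD.H-2b against BALB/c, at 2M, 4M and 6M (3 against 3 mice), with bars for the standard error and filled points for an FDR under 0.05. The red fibrillar and orange type VI points are mostly right of 0 and filled at 2M (7 of 8 and 4 of 5) and mostly open at 4M, while Col4a6, Col27a1 and Col9a3 stay right and Col7a1 and Col13a1 stay left at all ages.

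At 4M, of the 7 fibrillar chains higher at 2M, only Col27a1 was called again, beside Col24a1 and Col11a2. Of 34 tested, 7 were higher and 5 lower, where 23.4% and 19.2% of 17722 genes were called in these directions, and the median log2 fold change was -0.15 over the members and 0.00 over all genes. With a fold of at least 2, 5 were higher and 1 lower, against 15.6% and 4.72%. Col4a6, Col6a4, Col24a1 and Col28a1, called higher at 4M, at 6M and on average, passed the filter on low counts only through NOD.H-2b mice. For these chains only a higher level could be called. Scaling by library totals, which put the median of all genes at 0.15, gave 8 higher and 3 lower, where 4914 and 1992 of 17722 genes were called. BALB/c 4M replicate 1 decided much of the lower count, which was 11 without it, where 2556 of 18310 genes were lower. At 6M, 13 were higher and 4 lower of 34, where 28.6% and 25.8% of 17750 genes were called. With a fold of at least 2, 8 were higher and 1 lower, against 18.8% and 6.03%. Library totals put the median of all genes at 6M at 0.38, from 0.00, and gave 23 higher and 2 lower. With that scaling, 8482 of 17750 genes were higher and 1600 lower. The 4 lower calls were 2 without BALB/c 6M replicate 2, where 3935 of 18337 genes were lower.

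The main chains of types I and III were not called at 4M or 6M. At 4M Col1a1 was at 49.6, 65.1 and 103 CPM in BALB/c and at 50.8, 48.6 and 40.0 CPM in NOD.H-2b, and at 6M at 41.4, 55.1 and 48.4 against 50.8, 51.7 and 39.6 CPM. The strains overlapped at both ages. Col3a1 was at 134, 174 and 233 against 149, 152 and 127 CPM at 4M and at 116, 164 and 142 against 123, 132 and 108 CPM at 6M, again with overlap. BALB/c 4M replicate 3 had the highest level of both genes at its age in either strain, and the highest collagen share of its group (0.103% of counts against 0.0712% and 0.0787%). Multiplexins and part of type VI were called again at 6M. Col18a1 was at 3.68, 5.11 and 3.48 CPM in BALB/c and 6.70, 7.81 and 7.75 CPM in NOD.H-2b (log2 fold change 0.89 ± 0.16, SE, adjusted p = 0.0012), and Col15a1 at 8.56, 9.82 and 10.1 against 14.8, 13.4 and 14.6 CPM (0.62 ± 0.10, SE, adjusted p = 0.00047). Neither gene overlapped between strains at 6M. Endothelial markers were apart at 6M as well, with a summed level of 67.0 to 70.7 CPM in BALB/c and 121 to 140 CPM in NOD.H-2b, and 3 of 8 called higher and 1 lower, and their part was not tested. The smaller 6M calls of Col6a2 (log2 fold change 0.29, adjusted p = 0.045) and Col6a3 (0.30, adjusted p = 0.046) were each lost in 4 of 6 fits without 1 mouse, with adjusted p up to 0.198. For Col6a2 these were the fits without BALB/c 6M replicate 1 or any NOD.H-2b 6M mouse, and for Col6a3 those without BALB/c 6M replicate 1 or 2 or NOD.H-2b 6M replicate 1 or 2.

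Averaged over the ages in the fit of all 18 mice, 14 collagens were higher and 7 lower of 35 tested, where 32.5% and 33.1% of 19117 genes were called. A fold of at least 2 was met by 6 higher and 2 lower collagens, against 17.6% and 5.19% of all genes. With library totals, which put the median of all genes at 0.25, from -0.02, the split was 21 higher and 4 lower. Of all 19117 genes, 10184 were then higher and 2728 lower. Col4a6, Col27a1 and Col9a3 were called higher at every age, and Col7a1 and Col13a1 lower. The share of all genes called at every age was not computed, so this is not read as more or fewer than usual.

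Col4a6 had the clearest strain difference of the basement membrane chains. It encodes the sixth type IV chain, which pairs with Col4a5 in some epithelial and smooth muscle basement membranes. Raw counts were 6, 5 and 5 in BALB/c and 146, 140 and 145 in NOD.H-2b at 2M, 2, 2 and 6 against 118, 94 and 67 at 4M, and 9, 4 and 10 against 159, 81 and 83 at 6M. The lowest NOD.H-2b mouse had 67 counts and the highest BALB/c mouse 10. Col4a6 passed the filter on low counts only through NOD.H-2b, so only a higher level could be called. As log2 fold changes, the differences were 4.56 ± 0.28 at 2M (SE, adjusted p = 3.6e-07), 4.68 ± 0.40 at 4M (SE, adjusted p = 2.1e-05) and 3.68 ± 0.39 at 6M (SE, adjusted p = 3.4e-05). Col4a5, named after its values were seen, went the other way at 2M, with 9.02, 8.17 and 7.12 CPM in BALB/c and 6.13, 6.33 and 6.13 CPM in NOD.H-2b (log2 fold change -0.34 ± 0.11, SE, adjusted p = 0.023). That call was lost without BALB/c 2M replicate 1 or 2 (adjusted p up to 0.103) and with library totals. At 4M and 6M too, all NOD.H-2b mice lay below all BALB/c mice for Col4a5. It was called lower again at 6M, a call lost in 4 of 6 fits without 1 mouse (adjusted p up to 0.0921). Averaged over the ages it was called lower as well, and 1 of 25 alternatives lost that call.

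The transcripts of Col4a5 and Col4a6 start 1343 bases apart on opposite strands of chromosome X. Since the 2 neighbours differed in direction, the 150 bases before each start are shown, in the direction of transcription, from RefSeq on GRCm38.p6 (chrX:141475269-141475418, plus strand, and chrX:141474077-141474226, minus strand). Capitals mark the letters GGGCGG (the GC box bound by Sp1), CCAAT or TATAAA on either strand.
Col4a5: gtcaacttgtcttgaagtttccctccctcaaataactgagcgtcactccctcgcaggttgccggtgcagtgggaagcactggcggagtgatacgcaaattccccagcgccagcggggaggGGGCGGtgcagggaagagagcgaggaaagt
Col4a6: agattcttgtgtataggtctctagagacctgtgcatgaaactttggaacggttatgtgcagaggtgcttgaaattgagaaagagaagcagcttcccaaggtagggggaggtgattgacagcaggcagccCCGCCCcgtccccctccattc

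Each window held 1 copy of GGGCGG, 30 bases before the start of Col4a5 and, as its reverse complement CCGCCC, 21 bases before that of Col4a6, and neither held CCAAT or TATAAA. Over all 32851 promoter windows of this length, GGGCGG was found in 28.6%, CCAAT in 24.5% and TATAAA in 7.57%. Among the 35 collagen genes with an entry, 18 windows held GGGCGG, 7 CCAAT and 4 TATAAA, the last in Col3a1, Col10a1, Col11a2 and Col17a1. Matching letters describe the window and do not show a bound factor.

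Col27a1, a fibrillar chain with the shorter unbroken run seen above, was higher in NOD.H-2b by a margin that grew with age. It was at 1.89, 1.88 and 1.80 CPM in BALB/c and 2.48, 3.79 and 2.78 CPM in the NOD.H-2b mice at 2M, at 1.86, 1.83 and 2.70 against 4.51, 4.06 and 3.32 CPM at 4M, and at 1.53, 1.15 and 1.17 against 5.98, 3.26 and 4.14 CPM at 6M. At no age did the strains overlap. The log2 fold change was 0.74 ± 0.19 at 2M (SE, adjusted p = 0.0093), 0.90 ± 0.21 at 4M (SE, adjusted p = 0.0064) and 1.81 ± 0.25 at 6M (SE, adjusted p = 0.00018). Col9a3, a FACIT chain best known from cartilage, was at 0.612, 0.646 and 0.741 CPM in BALB/c and 0.986, 1.28 and 1.23 CPM in the NOD.H-2b mice at 2M. By 6M the levels were 0.612, 0.447 and 0.327 against 1.88, 1.31 and 1.03 CPM, with a log2 fold change of 1.60 ± 0.33 (SE, adjusted p = 0.0024). The Col9a3 calls were weaker at 2M and 4M, where 4 and 5 of 6 fits without 1 mouse lost them (adjusted p up to 0.11), and 234 exonic bases of Col9a3 are shared with Tcfl5 on the other strand. At 2M these were the fits without BALB/c replicate 1 or 2 or NOD.H-2b replicate 2 or 3, and at 4M those without any BALB/c mouse or NOD.H-2b replicate 1 or 2. Markers of cartilage and tendon summed to 25.4 to 34.6 CPM over the BALB/c mice and 15.8 to 26.6 CPM over the NOD.H-2b mice.

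Col7a1 was lower in NOD.H-2b at every age. In BALB/c it was at 226, 235 and 230 CPM at 2M, 259, 240 and 238 CPM at 4M and 246, 234 and 260 CPM at 6M, almost level. In NOD.H-2b it was at 210, 202 and 204 CPM at 2M, 154, 191 and 180 CPM at 4M and 127, 132 and 144 CPM at 6M. The strains did not overlap at any age, and the gap widened with each age. The log2 fold change was -0.12 ± 0.04 at 2M (SE, adjusted p = 0.038), -0.48 ± 0.09 at 4M (SE, adjusted p = 0.0015) and -0.84 ± 0.08 at 6M (SE, adjusted p = 2e-05). The 2M value is small against the scaling, since library totals gave 0.06 in the other direction, and leaving out any BALB/c 2M mouse lost the call (adjusted p between 0.0695 and 0.152). Col7a1 anchors basal epithelium, and the 6 markers of myoepithelial cells, the basal cells of the LG, were at 43.2 to 49.6 CPM in BALB/c and 36.3 to 39.9 CPM in the NOD.H-2b mice at 2M, and at 38.2 to 58.7 against 35.3 to 37.8 CPM at 6M. At each age 2 of them were called lower and none higher, and their part in the Col7a1 difference was not tested.

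Col13a1, a transmembrane collagen of cell adhesion sites and the neuromuscular junction, was lower in NOD.H-2b from the start. At 2M it was at 2.96, 2.98 and 3.47 CPM in BALB/c and 1.45, 0.746 and 1.51 CPM in NOD.H-2b, and at 6M at 2.05, 1.75 and 1.73 against 0.640, 0.683 and 0.684 CPM. All NOD.H-2b mice were below all BALB/c mice at each age. The log2 fold change was -1.31 ± 0.25 at 2M (SE, adjusted p = 0.0015), -1.32 ± 0.28 at 4M (SE, adjusted p = 0.0034) and -1.43 ± 0.22 at 6M (SE, adjusted p = 0.00037), and no alternative lost any of the 3 calls. Ckm, a muscle enzyme, was lower too (log2 fold change -3.21 ± 0.64 at 2M, SE, adjusted p = 0.002). It was the one skeletal muscle marker of 8 with enough counts to test at 2M, and its part was not tested. Of the single ages, the short-chain collagen Col8a1, a component of vascular and corneal matrix, was called lower only at 2M. It was then at 0.420, 0.754 and 0.600 against 0.230, 0.289 and 0.173 CPM (log2 fold change -1.31 ± 0.38, SE, adjusted p = 0.017). Its adjusted p at 2M was 0.0834 without BALB/c 2M replicate 2 and 0.0620 without NOD.H-2b 2M replicate 3. Averaged over the ages, Col8a1 was called lower as well (log2 fold change -0.79), and no alternative lost that call.

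**Figure D3:**
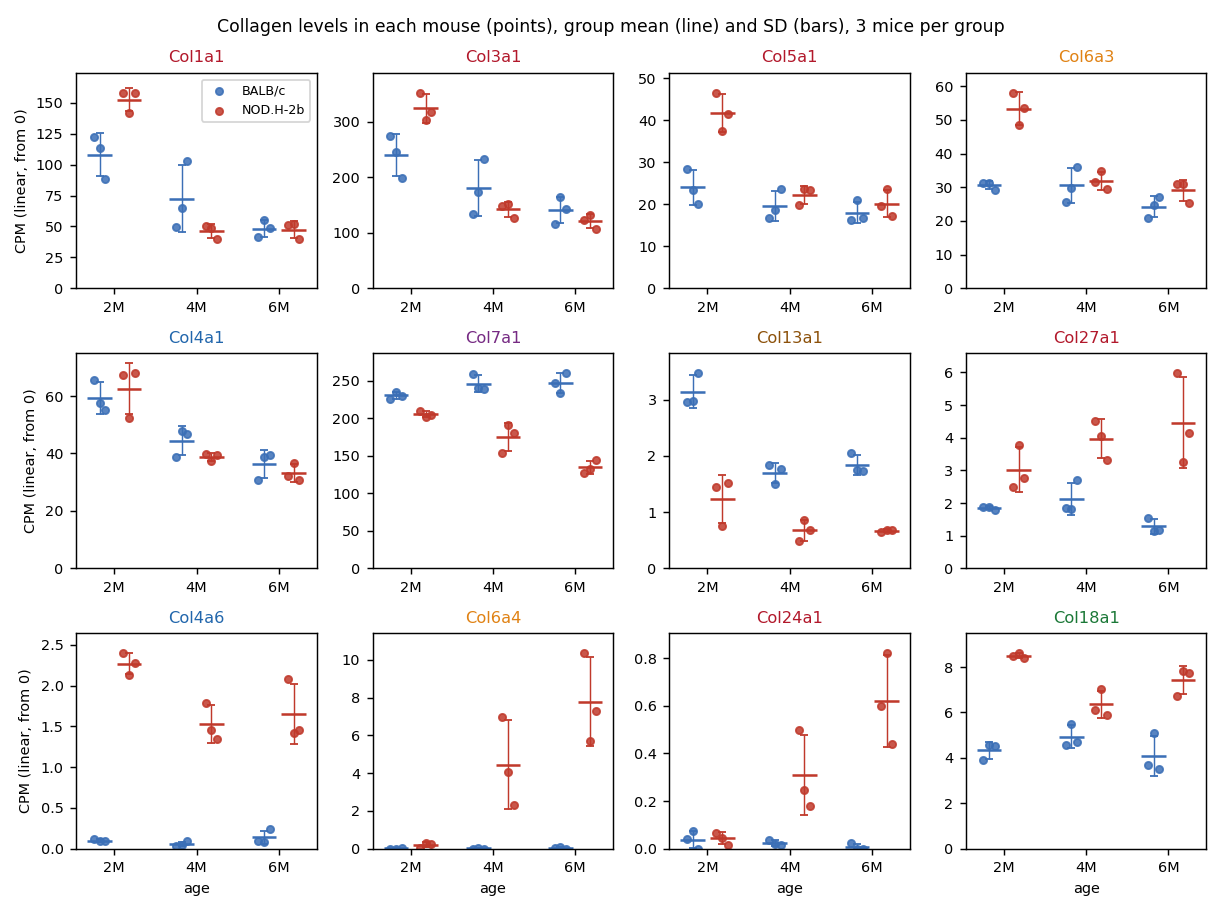
Level of 12 collagen genes in each mouse in CPM on linear axes from 0, with the group mean (line) and SD (bars) of 3 mice. Col1a1 and Col3a1 peak in NOD.H-2b at 2M, Col7a1 stays level in BALB/c and falls in NOD.H-2b to between 127 and 144 CPM, and Col6a4 and Col24a1 appear in NOD.H-2b at 4M and 6M.

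Some chains near the limit of detection in BALB/c appeared in NOD.H-2b. Col6a4, a type VI chain that can take the place of Col6a3, had 0, 0 and 2 counts in BALB/c and 3, 20 and 14 in NOD.H-2b at 2M. At 4M it had 0, 1 and 0 against 461, 262 and 115 counts, and at 6M 1, 4 and 0 against 793, 327 and 416. From 4M on, the lowest NOD.H-2b mouse had 115 counts and the highest BALB/c mouse 4. At 4M the pooled counts per library size differed by a ratio of 791 (95% exact interval 142 to 31266, counting error only), since BALB/c had 1 count in all. The edgeR test called Col6a4 at 4M (adjusted p = 9.5e-05) and 6M (adjusted p = 3.2e-06). Col6a4, like Col24a1 and Col28a1 below, passed the filter only through NOD.H-2b, so only a higher level could be called. The counts describe the difference, and the calls add no separate support. Col6a4 shares 162 exonic bases with Gm47575 and 127 with Gm36993 on the other strand, and the strand setting of the counting is not given in the sources used here.

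Col24a1, the other fibrillar chain with a shorter unbroken run, had 2, 4 and 0 counts in BALB/c and 4, 3 and 1 in NOD.H-2b at 2M, 2, 1 and 1 against 33, 16 and 9 at 4M, and 2, 0 and 0 against 46, 47 and 25 at 6M. The strains were alike in range at 2M and apart from 4M on. The pooled ratio was 13.7 at 4M (95% exact interval 5.06 to 51.9) and 56.6 at 6M (15.3 to 473), with adjusted p of 0.0023 and 8.3e-05. Col28a1, a short-helix chain known from peripheral nerve, had 3, 1 and 2 against 19, 25 and 52 counts at 4M, a ratio of 15.1 (6.69 to 42.2, adjusted p = 0.0016), and 10, 1 and 2 against 28, 37 and 12 at 6M. Summed Schwann cell markers stayed between 32.3 and 38.2 CPM in every mouse. B cell markers moved with Col6a4 and Col24a1, at 0.0353 to 2.09 CPM over all BALB/c mice, 1.46 to 26.1 CPM in the NOD.H-2b mice at 2M, 132 to 294 CPM at 4M and 202 to 401 CPM at 6M. T cell markers rose likewise, from 4.34 to 15.8 CPM at 2M to 35.3 to 62.6 CPM at 4M and 40.0 to 56.1 CPM at 6M, and the part of immune cells in these collagen counts was not tested.

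Going the other way, Col25a1, a transmembrane collagen of neurons and muscle, had 10, 15 and 8 counts in BALB/c and 1, 4 and 4 in NOD.H-2b at 2M, 7, 29 and 47 against 4, 1 and 0 at 4M, and 41, 24 and 5 against 2, 0 and 1 at 6M. Every BALB/c mouse was above every NOD.H-2b mouse of its age. The 6M ratio of pooled counts was 24.3 in favor of BALB/c (95% exact interval 7.99 to 121), and the average over the ages was a log2 fold change of -3.48 ± 0.49 (SE, adjusted p = 4.1e-06). In that fit Col25a1 passed the filter only through BALB/c, so only a lower level could be called. A further 5 chains stayed under 10 counts in every mouse and were not tested. Col19a1 had 0 counts in all 9 BALB/c mice and 14, 7 and 11 pooled counts in NOD.H-2b at 2M, 4M and 6M. Set against a floor of 3 counts over the BALB/c group, these observed counts were 4.04, 2.20 and 3.52-fold higher. Col26a1 at 2M had 0 pooled counts in BALB/c against 12 in NOD.H-2b, 3.47-fold higher by the same floor. These folds take the NOD.H-2b counts as exact and are no lower bounds. Col8a2 had 4 against 16 pooled counts at 6M, a ratio of 3.84 (1.24 to 15.8), and 7 against 15 at 2M, a ratio of 1.86 (0.712 to 5.38). For Col9a1 (2 against 9 pooled counts, ratio 3.90, 0.807 to 37.1) and Col11a1 (5 against 9, ratio 1.56, 0.469 to 5.92) no difference at 2M was detectable at this depth. Of the 9 Col9a1 counts, 8 came from 1 mouse. Col9a2, also untested, had 1 to 12 counts per mouse.

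With age, most collagen calls were falls in both strains. From 2M to 4M, 16 of 34 tested were downregulated and 3 upregulated in NOD.H-2b, where 5.48% and 10.3% of 17763 genes were called in these directions. In BALB/c 4 of 31 fell and none rose, against 5.01% and 6.1% of 16639 genes. An unadjusted p under 0.05 in either direction was found in BALB/c for 12 members and for 4416 of all 16639 genes. DESeq2 called 2 members higher in BALB/c, and edgeR without BALB/c 4M replicate 1 called 3. Of all genes, DESeq2 called 1188 of 16639 higher and that edgeR fit 962 of 17002. The 4 BALB/c falls were 2 without BALB/c 2M replicate 2, where 386 of 17003 genes fell. From 2M to 6M, 18 of 34 fell and 4 rose in NOD.H-2b, where 19.4% and 20.7% of 18008 genes were called. In BALB/c 10 of 31 fell and none rose, where 2.13% and 3.48% of 16579 were called. An unadjusted p under 0.05 was found there for 17 members and for 3511 of all 16579 genes. The BALB/c count of falls was 4 without BALB/c 2M replicate 1 or 2, 6 without 6M replicate 1 and 5 without 6M replicate 2. In these 4 fits, in that order, 122 of 16964, 112 of 16863, 215 of 16842 and 144 of 16851 genes fell. A fold of at least 2 was met from 2M to 4M by 4 falls and 3 rises in NOD.H-2b, against 0.625% and 5.97% of genes, and by none in BALB/c, against 0.3% and 2.07%. From 2M to 6M it was met by 6 falls and 3 rises in NOD.H-2b, against 1.55% and 10.9%, and by 1 fall and no rise in BALB/c, against 0.115% and 1.57%.

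Fibrillar chains were among the largest falls in NOD.H-2b. Col1a1 dropped from 158, 142 and 158 CPM at 2M to 50.8, 48.6 and 40.0 CPM at 4M, a log2 fold change of -1.71 ± 0.10 (SE, adjusted p = 0.00022), and stayed there at 6M. Col3a1 went from 352, 302 and 317 to 149, 152 and 127 CPM (-1.18 ± 0.09, SE, adjusted p = 0.00078) and Col1a2 from 163, 151 and 155 to 71.8, 74.4 and 62.8 CPM (-1.17 ± 0.08, SE, adjusted p = 0.00052). In all 3 genes the highest mouse at 4M was below the lowest at 2M by a wide margin. Of 9 fibrillar chains tested, 5 fell and 1, Col24a1, rose. The summed fibroblast markers of NOD.H-2b were at 73.8 to 79.5 CPM at 2M and 57.3 to 70.7 CPM at 4M, with no marker called by edgeR, and their part was not tested. Type V followed with log2 fold changes of -0.91 ± 0.10 for Col5a1 and -0.69 ± 0.09 for Col5a2 (SE, adjusted p = 0.0032 and 0.0048). Of the 6 type VI chains 4 fell, Col6a3 by -0.74 ± 0.09 (SE, adjusted p = 0.0043), and Col6a4 rose. Both multiplexins fell, Col15a1 by -0.52 ± 0.08 (SE, adjusted p = 0.0086) and Col18a1 by -0.42 ± 0.11 (SE, adjusted p = 0.035), of which the Col18a1 call was lost in 5 of 6 fits without 1 mouse, all but that without NOD.H-2b 4M replicate 2 (adjusted p up to 0.106).

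Basement membrane chains fell in both strains. The scarce chains Col4a3 and Col4a4, named after their values were seen, changed by -1.41 ± 0.41 and -0.95 ± 0.22 from 2M to 4M in NOD.H-2b (SE, adjusted p = 0.048 and 0.023). The Col4a3 call was lost in 5 of 6 fits without 1 mouse, all but that without 2M replicate 2, and the Col4a4 call in 3, those without 2M replicate 1 or 3 or 4M replicate 2 (adjusted p up to 0.162). Col4a1 went from 65.5, 57.6 and 55.0 CPM at 2M to 38.7, 48.0 and 46.6 CPM at 4M and 30.8, 38.9 and 39.3 CPM at 6M in BALB/c, a log2 fold change of -0.72 ± 0.10 from 2M to 6M (SE, adjusted p = 0.0077). In NOD.H-2b it went from 67.4, 52.2 and 68.0 CPM to 40.0, 37.4 and 39.4 CPM and then 32.1, 36.7 and 30.8 CPM, a log2 fold change of -0.93 ± 0.12 (SE, adjusted p = 0.0011). Col4a2 changed by -0.75 ± 0.07 in BALB/c (SE, adjusted p = 0.00014) and -0.80 ± 0.13 in NOD.H-2b (SE, adjusted p = 0.0028). In both strains all 6M mice were below all 2M mice for both genes. No fit without 1 mouse lost the calls of Col4a1 and Col4a2 from 2M to 6M. From 2M to 4M the BALB/c calls of Col4a1 and Col4a2 (-0.41 ± 0.09 and -0.39 ± 0.09, SE, adjusted p = 0.029 and 0.021) were each lost in 2 of 6 such fits, without BALB/c 2M replicate 2 for both, without 4M replicate 3 for Col4a1 and without 2M replicate 1 for Col4a2 (adjusted p up to 0.0709).

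Other BALB/c falls were smaller or less even. Col1a1 fell from 122, 114 and 88.6 CPM at 2M to 41.4, 55.1 and 48.4 CPM at 6M (log2 fold change -1.17 ± 0.16, SE, adjusted p = 0.016), with no overlap, and the call was lost without BALB/c 2M replicate 2 (adjusted p = 0.0595) or 6M replicate 3 (adjusted p = 0.0726). Col15a1 changed by -0.63 ± 0.10 (SE, adjusted p = 0.0044) and kept its call without any 1 mouse. Col12a1, a FACIT that coats type I fibrils, fell already by 4M, from 9.94, 9.48 and 11.5 to 5.57, 6.91 and 6.62 CPM (log2 fold change -0.69 ± 0.11, SE, adjusted p = 0.0016). Col13a1 fell alongside it (-0.88 ± 0.17, SE, adjusted p = 0.006). In NOD.H-2b, Col7a1 changed by -0.63 ± 0.08 between 2M and 6M (SE, adjusted p = 0.00089).

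The upward calls of NOD.H-2b between 2M and 4M were chains with few counts at 2M. These chains passed the filter only through the 4M mice, so only a rise could be called. Col6a4 rose by a log2 fold change of 4.51 ± 0.65 from 2M to 4M (SE, adjusted p = 0.012), a call lost without NOD.H-2b 2M replicate 3 (adjusted p = 0.0727). Col24a1 rose by 2.84 ± 0.65 (SE, adjusted p = 0.024) and Col28a1 by 1.92 ± 0.55 (SE, adjusted p = 0.048). The 3 calls were 1 without NOD.H-2b 2M replicate 1 or 2 and 0 without replicate 3. In these fits 897 of 18249, 1615 of 18198 and 337 of 18247 genes rose. By 6M, Col6a4 and Col24a1 were up by 5.30 ± 0.48 and 3.80 ± 0.52 (SE, adjusted p = 0.00096 and 0.0012), and no fit without 1 mouse lost these. In this comparison both passed the filter only through the 6M mice. Again only a rise could be called, and the calls add no separate support. The 4 upward calls from 2M to 6M included Col11a2, which had 52 to 101 counts per NOD.H-2b mouse at 2M and was named after its value was seen, and were 2 without NOD.H-2b 2M replicate 1 or 3 or 6M replicate 1. Between 4M and 6M edgeR called no collagen in either strain, where it called 0.174% of genes higher and 0.132% lower in BALB/c and 0.00555% higher and 0% lower in NOD.H-2b. Unadjusted p was under 0.05 for 11 of 31 members in BALB/c and 5 of 34 in NOD.H-2b, and DESeq2 called 4 and 1 lower. Of all genes, DESeq2 called 183 of 16622 lower in BALB/c and 90 of 18026 in NOD.H-2b. A fold of at least 2 was met by 0.018% of genes in each direction in BALB/c and by 0.00555% higher and 0% lower in NOD.H-2b.

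**Figure D4:**
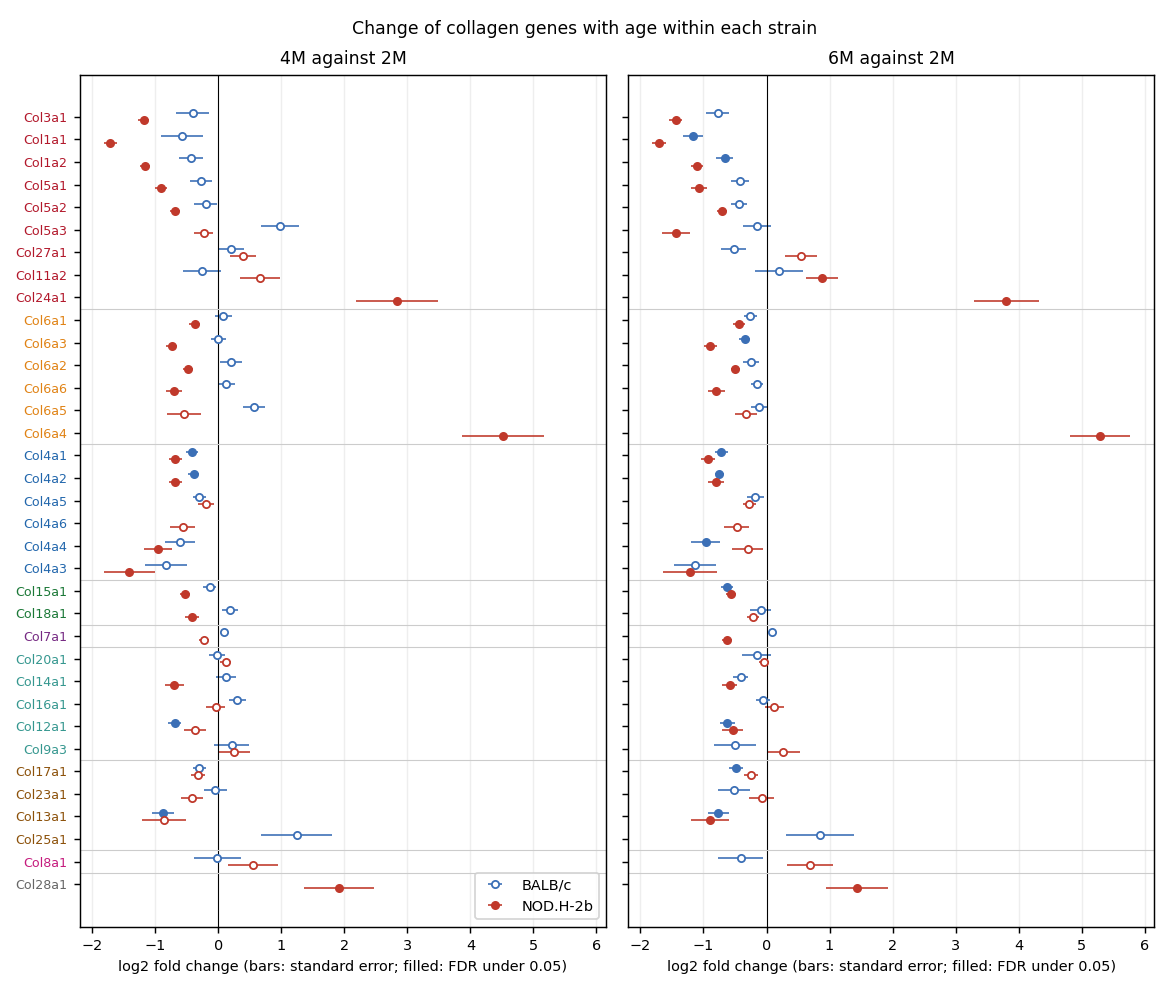
Log2 fold change of each tested collagen gene from 2M to 4M (left) and from 2M to 6M (right), blue for BALB/c and red for NOD.H-2b (3 against 3 mice each), with bars for the standard error and filled points for an FDR under 0.05. Most red points of the fibrillar, type VI and type IV classes are filled and left of 0, with 16 falls in NOD.H-2b against 4 in BALB/c by 4M, and Col6a4, Col24a1 and Col28a1 lie far right.

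Whether the age change differed between the strains was tested itself, in the fit of all 18 mice. From 2M to 4M the strain difference fell for 1 collagen of 35, Col6a3, and rose for none, where 0.978% and 0.696% of 19117 genes were called. Its change was -0.74 ± 0.17 on the log2 scale (SE, adjusted p = 0.035). Of the 35, 16 had an unadjusted p under 0.05, against 3153 of all 19117 genes. DESeq2 called 11 falls, where it called 548 of 19117 genes falling. None of the called members changed by a fold of at least 2, against 0.33% of genes falling and 0.361% rising. The fall of Col1a1 in NOD.H-2b beyond that in BALB/c did not pass the test, with adjusted p = 0.0862. This count depended on 1 mouse more than any other, since edgeR called 9 falls without BALB/c 4M replicate 1, where 181 of 19589 genes fell. The count of falls was also 5 without BALB/c 6M replicate 2, 4 without BALB/c 6M replicate 1 or NOD.H-2b 4M replicate 2, 2 without BALB/c 2M replicate 1, BALB/c 6M replicate 3 or NOD.H-2b 6M replicate 3, and 0 without BALB/c 2M replicate 3, NOD.H-2b 2M replicate 1 or 3 or NOD.H-2b 4M replicate 1 or 3.

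From 2M to 6M the strain difference rose for 2 and fell for 4, where 7.04% and 9.09% of 19117 genes were called. By a fold of at least 2, 2 rose and 1 fell, against 3.6% and 1.5%. Col7a1 changed by -0.71 ± 0.10 (SE, adjusted p = 0.00068), and no alternative lost this call. Col24a1 rose by 5.42 ± 1.35 (SE, adjusted p = 0.013), a fitted value that rests on few BALB/c counts, and lost its call without BALB/c 2M replicate 2 (adjusted p = 0.108). Col27a1 rose by 1.08 ± 0.32 (SE, adjusted p = 0.03) and lost its call in 8 of 18 fits without 1 mouse, those without any BALB/c 2M mouse, NOD.H-2b 2M replicate 1 or 3, BALB/c 6M replicate 2 or 3 or NOD.H-2b 6M replicate 1 (adjusted p up to 0.106). The other falls were Col6a3, Col5a3 and Col6a6. The 4 falls were 7 without BALB/c 4M replicate 3, 2 without BALB/c 2M replicate 2, NOD.H-2b 2M replicate 3 or BALB/c 6M replicate 2, and 1 without BALB/c 2M replicate 3, NOD.H-2b 2M replicate 1, BALB/c 6M replicate 3 or NOD.H-2b 6M replicate 1 or 3. The 2 rises were 0 without BALB/c 2M replicate 2 and 1 without BALB/c 2M replicate 1 or 3, NOD.H-2b 2M replicate 1 or 3, BALB/c 6M replicate 2 or 3 or NOD.H-2b 6M replicate 1.

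Chains that assemble into 1 molecule, and Col3a1 of type III with Col1a1 of type I, were compared within each library. They were taken as ratios of counts per kb, which do not depend on how libraries are scaled. Strains were permuted within each age over 8000 arrangements in a two-sided exact permutation test, with p adjusted over 7 ratios. Col6a3 relative to Col6a1 was 0.522, 0.570 and 0.564 in BALB/c and 0.813, 0.781 and 0.773 in NOD.H-2b at 2M, 0.501, 0.567 and 0.503 against 0.588, 0.628 and 0.625 at 4M, and 0.529, 0.496 and 0.526 against 0.595, 0.566 and 0.563 at 6M. All NOD.H-2b mice were above all BALB/c mice at each age. The mean difference was 0.30 on the log2 scale (adjusted p = 0.00175 in the exact permutation test, from the smallest p that it can give, 0.00025).

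Col5a1 relative to Col5a2 was higher in NOD.H-2b by 0.26 (exact permutation test, adjusted p = 0.0158), chiefly at 2M, with 1.39, 1.31 and 1.29 in BALB/c against 1.96, 1.69 and 1.78 in NOD.H-2b. Col4a1 relative to Col4a2 was lower in NOD.H-2b by 0.11 on the log2 scale (-0.11, exact permutation test, adjusted p = 0.0105), chiefly at 6M, with 1.30, 1.45 and 1.38 against 1.23, 1.16 and 1.15. The strains overlapped at 2M (1.29 to 1.42 against 1.26 to 1.31) and at 4M (1.27 to 1.36 against 1.25 to 1.30). A smaller ratio of Col4a3 to Col4a4, chains of specialised epithelial basement membranes, rested on few counts, at least 11 per mouse (log2 difference -0.52, exact permutation test, adjusted p = 0.0293). Col4a3 shares 563 exonic bases with C430014B12Rik on the other strand, so its counts are uncertain. It was lost in 4 of 18 exact tests without 1 mouse, with adjusted p up to 0.0641 (BALB/c 2M replicate 2, NOD.H-2b 2M replicate 2 or 3, and NOD.H-2b 4M replicate 3). Col6a1 relative to Col6a2 differed by -0.12 (exact permutation test, adjusted p = 0.0361), and 9 of 18 such tests lost it, with adjusted p up to 0.0917 (BALB/c 2M replicate 3, 4M replicate 1, 6M replicates 1 and 3, and NOD.H-2b 2M replicates 2 and 3, 4M replicates 1 and 3, and 6M replicate 3).

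The balance of the type I and III chains did not pass the test between strains. Col1a1 relative to Col1a2 differed by -0.09 on the log2 scale (exact permutation test, adjusted p = 0.267) and Col3a1 relative to Col1a1 by 0.01 (adjusted p = 0.891, same exact test). Both ratios shifted with age in the values of each strain. Col1a1 relative to Col1a2 was 1.76 ± 0.0969 at 2M and 1.24 ± 0.0306 at 6M in BALB/c, and 1.84 ± 0.0732 and 1.22 ± 0.0776 in NOD.H-2b (SD, n = 3). Col3a1 relative to Col1a1 was 1.48 ± 0.0366 at 2M and 1.94 ± 0.0574 at 6M in BALB/c, and 1.42 ± 0.0726 and 1.71 ± 0.103 in NOD.H-2b (SD, n = 3). No test of age was made on these ratios.

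**Figure D5:**
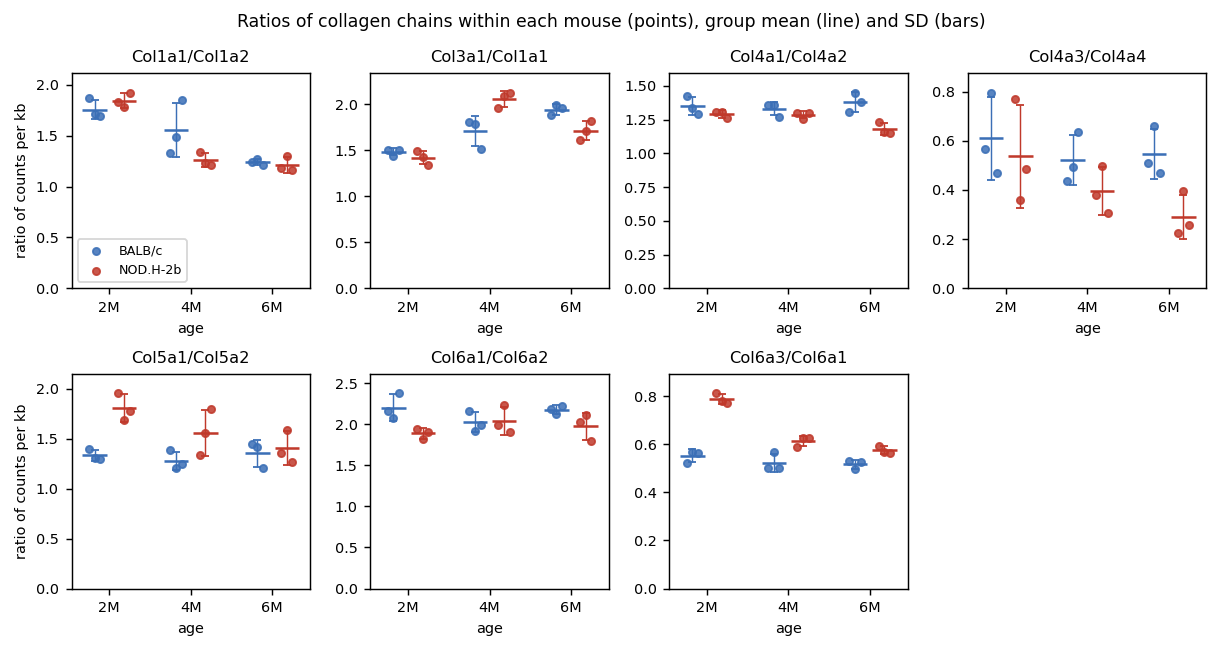
Ratios of collagen chains within each mouse, in counts per kb on linear axes from 0, with the group mean (line) and SD (bars) of 3 mice. Col6a3/Col6a1 is higher in NOD.H-2b at each age, at 0.773 to 0.813 against 0.522 to 0.570 at 2M, while Col1a1/Col1a2 declines with age in both strains.

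Genes that process collagen were read from hand-written lists, beside the background shares given above for each age. Propeptide cleavage and cross-linking, which turn secreted procollagen into stable fibers, moved most evenly. Of 12 tested genes, 7 were higher and none lower at 2M, 2 and 0 at 4M, and 5 and 0 at 6M. Its median log2 fold changes at the 3 ages were 0.67, -0.16 and 0.40, where the medians of all genes were 0.01, 0.00 and 0.00. Called at 2M were the propeptidases Adamts2 and Adamts14, their enhancer Pcolce, the lysyl oxidases Lox, Loxl1 and Loxl3, and Pxdn, the peroxidase that cross-links type IV collagen. Loxl3 led the list over the ages, with log2 fold changes of 1.25 ± 0.22, 1.37 ± 0.24 and 1.61 ± 0.25 (SE, adjusted p = 0.00095, 0.0014 and 0.00043). From 2M to 4M in NOD.H-2b, 4 of 13 fell and none rose.

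Modification and folding of procollagen in the endoplasmic reticulum was mixed, with 4 higher and 3 lower of 18 at 2M, 2 and 5 at 4M, and 5 and 6 at 6M. The collagen chaperone Serpinh1 was called higher at 2M, with 10.1 ± 1.36 CPM in the BALB/c mice and 14.3 ± 1.20 CPM in the NOD.H-2b mice (SD, n = 3). Colgalt1, which adds galactose to hydroxylysine, was higher at every age (log2 fold change 0.66 ± 0.05 at 2M, SE, adjusted p = 2.4e-06), and P3h4, a partner of prolyl hydroxylases, was lower (-0.25 ± 0.07 at 2M and -0.78 ± 0.13 at 6M, SE, adjusted p = 0.018 and 0.00058). The 2M call of P3h4 was lost without BALB/c 2M replicate 1 (adjusted p = 0.0597) or 3 (0.0673) and with library totals. Fibril-associated matrix genes counted 6 higher and 0 lower of 15 at 2M, 2 and 3 at 4M, and 6 and 0 at 6M, led by biglycan (Bgn) with log2 fold changes of 0.93 ± 0.09, 1.04 ± 0.15 and 1.66 ± 0.09 (SE, adjusted p = 8.5e-06, 0.00087 and 5.6e-07). From 2M to 4M in NOD.H-2b, 7 of 16 fell, among them Sparc (-1.07 ± 0.08, SE, adjusted p = 0.00068), a collagen-binding matrix protein.

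Laminins and other partners of the basement membrane counted 6 higher and 1 lower of 17 at 2M, 1 and 6 at 4M, and 4 and 3 at 6M, and 7 fell between 2M and 4M in NOD.H-2b. Their leading members moved in opposite directions at every age. Lama1, the laminin alpha chain of early epithelium, had log2 fold changes of -2.06 ± 0.33, -2.29 ± 0.30 and -1.81 ± 0.15 (SE, adjusted p = 0.0034, 0.00043 and 6.2e-06), and Lamb3, part of the laminin that binds type VII collagen, of 0.49 ± 0.10, 0.55 ± 0.13 and 0.96 ± 0.11 (SE, adjusted p = 0.0021, 0.0062 and 7e-05). Receptors of collagen counted 4 higher and 1 lower of 9 at 2M, 3 and 2 at 4M, and 5 and 1 at 6M. Lair1, an inhibitory collagen receptor of leukocytes, was higher by 2.84 ± 0.31 at 2M (SE, adjusted p = 0.00015), beside macrophage markers at 44.5 to 62.2 CPM in BALB/c and 152 to 164 CPM in NOD.H-2b, whose part was not tested.

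Proteases that degrade collagen counted 3 higher and 2 lower of 5 at 2M, 1 and 2 of 6 at 4M, and 2 and 2 of 6 at 6M. Ctsk, cathepsin K, was lower at every age (log2 fold change -0.74 ± 0.18, -1.61 ± 0.25 and -1.16 ± 0.22, SE, adjusted p = 0.0072, 0.00063 and 0.0015), and Pepd, which splits proline dipeptides, was higher (0.77 ± 0.06 at 2M, SE, adjusted p = 2.4e-06). TGF-beta signaling, a main inducer of collagen genes, counted 6 higher and 3 lower of 16 at 2M, 5 and 5 at 4M, and 8 and 4 at 6M. Its ligand Tgfb2 was lower at every age (-0.96 ± 0.12, -1.90 ± 0.11 and -1.67 ± 0.11, SE, adjusted p = 6.1e-05, 1.9e-06 and 1.4e-06). Ltbp2, a matrix protein of the latent TGF-beta binding family, was higher by a growing amount, with log2 fold changes of 1.23 ± 0.24, 2.91 ± 0.32 and 3.53 ± 0.30 (SE, adjusted p = 0.0017, 0.00013 and 1.2e-05).

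Markers of other cell types that lead their lists at every age were, on the higher side, Cd22 (B cell, log2 fold change 6.95 at 2M), Cd3d (T cell, 7.09), Adgre1 (macrophage, 2.34), Pecam1 (endothelial, 0.56) and Jchain (plasma cell, 3.67). On the lower side were Cspg4 (mural cell, -1.59 at 2M), Krt5 (myoepithelial, -0.55), Mkx (tendon, -0.30), Ckm and Derl3 (from the same plasma cell list as Jchain, -0.38). The plasma cell list thus went both ways, with 1 called higher and 1 lower at 2M and 3 higher and 1 lower at 4M and at 6M. Mural cell markers were 0 higher and 4 lower of 7 at 2M and 3 higher and 1 lower at 6M. Luminal epithelial markers were 6 higher and 0 lower of 8 at 2M and 1 higher and 4 lower at 6M, and 7 of 8 fell between 2M and 6M in NOD.H-2b. No adipocyte marker was called at any age, of 4, 3 and 2 tested with edgeR.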

How the data were processed

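Total RNA of 1 LG per mouse was depleted of ribosomal RNA and sequenced in pairs of reads. The authors used cutadapt for trimming, FastQC for quality, STAR for alignment (GRCm38) and HTSeq for gene counts, and the deposited counts are raw. Strand setting and handling of multiple matches are not given in the sources used here. The log2 values deposited by the authors come from the same counts and DESeq2 size factors (recomputed with a largest deviation of 5.15e-14) and were not used further.

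Counts were analysed with R 4.3.3, edgeR 4.0.16 (TMM, filterByExpr, robust quasi-likelihood test, Benjamini-Hochberg over all genes tested), limma 3.58.1 and DESeq2 1.42.0 (Wald test, as an alternative). SE is the size of the log2 value divided by the square root of F. Exon lengths and overlaps came from GENCODE M21, which held all 44 genes. The steps were tested on simulated data. Alternatives were DESeq2 size factors, upper quartile, library totals, no filter, at least 10 counts in every sample, DESeq2, a replicate block, 1 fit of 18 mice, a fold of at least 2, ratios of mean counts and leaving out each mouse. Intervals cover counting error only, and folds against a floor (3 counts) take the counts of the higher group as exact. Members, lists and tests were chosen with earlier results of these data known, and the text names main-class chains, chains called at every age, those with the smallest p for age or strain by age, those with a group at or under 3 counts, and the leading gene each way of each other list.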

Additional observations from a re-analysis of the deposited data

Results flagged for a closer look

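For 7 results the difference between the strains itself changed with age, by the interaction test of edgeR in the fit of all 18 mice. For Col6a3 the strain difference fell by 0.74 on the log2 scale from 2M to 4M (-0.74, adjusted p = 0.035) and from 2M to 6M it changed by -0.53 (adjusted p = 0.039). From 2M to 6M it changed by -0.71 for Col7a1 (adjusted p = 0.00068), 5.42 for Col24a1 (adjusted p = 0.013), 1.08 for Col27a1 (adjusted p = 0.03), -1.29 for Col5a3 (adjusted p = 0.0372) and -0.64 for Col6a6 (adjusted p = 0.0498). Col5a3 was at 12.5, 9.82 and 8.51 CPM in the NOD.H-2b mice at 2M and 3.10, 5.06 and 3.38 CPM at 6M, against 6.23, 5.87 and 4.59 and then 3.50, 6.50 and 5.33 CPM in BALB/c. Col6a6, a type VI chain, was at 23.2, 18.6 and 19.5 CPM in the NOD.H-2b mice at 2M and 13.2, 12.8 and 9.66 CPM at 6M, and at 19.6, 19.0 and 18.1 and then 15.0, 19.7 and 17.0 CPM in BALB/c. Leaving out 1 mouse lost the call of Col6a6 in 11 of 18 fits, Col5a3 in 7, Col6a3 in 5 (to 4M) and 6 (to 6M), Col27a1 in 8, Col24a1 in 1 and Col7a1 in none. Groups of 3 mice are too small for an outlier test.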

How the results depend on the processing

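The 132 calls of a collagen in a comparison gave 2134 values under the alternatives, of which 1891 kept direction and call, 242 kept direction and lost the call, and 1 changed direction, Col7a1 at 2M with library totals (0.0628). For the 11 leading genes of the pathway lists in the strain comparisons at each age, 459 values kept their call and 3 lost it, and the marker genes and other list genes were not run. The causes were not tested except that fewer or more genes were tested under other filters. The share of all genes called moved with the setting as well. Counts of members under an alternative, here and above, are therefore not read against the main shares. With the upper quartile, 3 strain differences fell from 2M to 4M. With library totals, lower counts were 2 at 2M, 3 at 4M, 2 at 6M (higher 23), 4 averaged and 2 in BALB/c from 2M to 4M, and strain differences fell for 2 to 4M and 1 to 6M. Without a filter, BALB/c had 1 rise to 4M, 16 falls to 6M and 9 from 4M to 6M, NOD.H-2b had 1 fall from 4M to 6M, and strain differences fell for 2 and 2. With at least 10 counts in every sample, 4 were higher at 4M, 0 and 1 rose in NOD.H-2b to 4M and 6M, and 1 strain difference rose to 6M. DESeq2 gave 2 rises to 4M and 4 falls from 4M to 6M in BALB/c, 1 fall from 4M to 6M in NOD.H-2b, and 11 falling strain differences to 4M. In 1 fit of 18 mice, 1 BALB/c and 2 NOD.H-2b falls were called from 4M to 6M. With a fold of at least 2, 2 and 2 were called at 2M, 1 lower at 4M, 8 and 1 at 6M, and 6 and 2 averaged.

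The labels give replicate numbers without saying whether they pair mice. Correlations of same-numbered mice ran from -0.42 to 0.43, which with 3 mice per group cannot settle it. With the replicate number as a block, 3 were lower at 4M, 1 rose to 4M and 1 fell from 4M to 6M in BALB/c, 0 rose and 8 fell to 4M, 2 rose to 6M and 2 fell from 4M to 6M in NOD.H-2b, and strain differences fell for 0 to 4M and 2 to 6M.

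Leaving out 1 mouse gave 12 to 16 higher and 1 to 5 lower at 2M, 6 to 7 and 4 to 11 at 4M, 10 to 14 and 2 to 5 at 6M, and 13 to 17 and 6 to 9 averaged. In BALB/c 0 to 3 rose and 2 to 4 fell to 4M, 0 rose and 4 to 9 fell to 6M, and 0 changed from 4M to 6M. In NOD.H-2b 0 to 2 rose and 11 to 16 fell to 4M, 2 to 4 rose and 15 to 18 fell to 6M, and 0 to 1 fell from 4M to 6M. By 4M, strain differences fell for 0 to 9 and rose for 0, and by 6M they fell for 1 to 7 and rose for 0 to 2. The log2 differences of chain ratios were -0.62 to -0.44 for Col4a3/Col4a4, -0.14 to -0.096 for Col6a1/Col6a2, 0.22 to 0.29 for Col5a1/Col5a2, -0.13 to -0.10 for Col4a1/Col4a2 and 0.29 to 0.32 for Col6a3/Col6a1. Depth limits chains under 10 counts.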
